A study of Homo sapiens with 8 samples.

Results

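NEAT1 and MALAT1 are a pair of long noncoding RNAs that stay in the nucleus, and their levels were followed across prostate cancer cells that had or had not been exposed to hydrogen peroxide (H2O2). They were found by symbol in the first column of the count tables, and they are 2 of 58828 listed genes. They were selected on their counts and their differences between these same libraries, which were known beforehand, so their own levels and differences are described here and carry no p-value. The RNA came from 22RV1 and DU145, established cell lines of human prostate cancer. They had been given either a doxycycline-inducible lentiviral construct for PAGE4, a prostate-associated protein that the study examined under oxidative stress, or the empty vector. Cells that survived puromycin selection were used, and vector and PAGE4 cells alike received doxycycline. They were then given PBS or H2O2 for 12 h. The labels and methods give the dose as 200 mM, but a much lower one is given for another H2O2 experiment of the study, so the dose is uncertain. This makes 8 conditions (22RV1 vector, 22RV1 PAGE4, DU145 vector and DU145 PAGE4, each with PBS and with H2O2), with 1 library per condition.

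In 22RV1 cells NEAT1 was higher with H2O2, 2.67-fold in vector cells and 2.80-fold in PAGE4 cells. In DU145 cells it was lower with H2O2, 1.96-fold in vector cells and 1.93-fold in PAGE4 cells. MALAT1 lay beyond 1.5-fold in none of these 4 pairs. PAGE4 cells had 2.27-fold the NEAT1 of vector cells with PBS and 2.38-fold with H2O2 in 22RV1, while in DU145 NEAT1 was 1.16-fold and 1.14-fold lower in PAGE4 cells. In bulk RNA such as this, fewer cells that hold an RNA and less of it per cell cannot be told apart. Between the lines, MALAT1 was higher in DU145 in all 4 matched pairs, by 1.51-fold to 2.44-fold with size factors from all 8 libraries.

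NEAT1 is the scaffold of paraspeckles, nuclear bodies that form around the long isoform of this RNA together with RNA-binding proteins such as NONO, SFPQ and RBM14. Its transcription is known to rise under many forms of stress, and the hypoxia-inducible factors, HSF1 and ATF2 are among the factors known to act on it. MALAT1 is among the most abundant noncoding RNAs of many cells, gathers in nuclear speckles rich in splicing factors, and is known for its association with metastasis. A short NEAT1 isoform ends in an ordinary poly(A) tail. The long NEAT1 isoform and MALAT1 do not, because RNase P cuts their precursors just before a small tRNA-like RNA, and the new end is protected by a triple helix of U-rich and A-rich stretches.

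In the GENCODE annotation of GRCh38, NEAT1 lies on the forward strand of chromosome 11 from 65422774 to 65445540, and MALAT1 lies on the same strand from 65497640 to 65508073. The gap between them is 52099 bases. The annotated exons cover 22767 bases of NEAT1 and 10434 bases of MALAT1, and the RefSeq lengths are 22743 and 8779 bases. The ends where RNase P acts are shown because they decide which library methods can capture these RNAs. Each sequence below is the forward strand of hg38 and holds 110 bases before the annotated tRNA-like RNA and then that RNA, of 58 bases for NEAT1 and 57 for MALAT1, with the runs of 9 or more bases common to both ends in capitals.
NEAT1 end, chr11:65445431-65445598: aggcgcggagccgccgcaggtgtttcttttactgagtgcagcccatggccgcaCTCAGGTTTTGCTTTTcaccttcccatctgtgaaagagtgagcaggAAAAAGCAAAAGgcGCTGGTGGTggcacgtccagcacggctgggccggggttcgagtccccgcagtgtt
MALAT1 end, chr11:65506007-65506173: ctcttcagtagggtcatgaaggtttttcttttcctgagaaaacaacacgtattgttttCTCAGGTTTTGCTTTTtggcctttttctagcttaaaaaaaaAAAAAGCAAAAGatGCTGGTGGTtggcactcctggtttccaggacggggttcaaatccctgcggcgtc

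The capitals mark 3 runs, of 16, 12 and 9 bases. The run of 16 bases is rich in T (U in the RNA), the run of 12 bases is rich in A and ends on the first base of the annotated tRNA-like RNA, and the run of 9 bases lies inside that RNA near its start. Of the 110 bases before the tRNA-like RNA, A makes up 23.6% in NEAT1 and 30.0% in MALAT1, and T makes up 23.6% and 37.3%. The longest run of A there is 5 bases in NEAT1 and 13 bases in MALAT1. Whether the libraries were made from poly(A)-selected or rRNA-depleted RNA, and with which strand setting reads were counted, is not given in the sources used here. The antisense RNA TALAM1 is annotated from 65499312 to 65507432 on the reverse strand, inside MALAT1, and without a known strand setting reads of TALAM1 and MALAT1 cannot be told apart in these counts. Small RNA genes annotated on the same strand cover 2.13% of the NEAT1 exon bases and 1.46% of those of MALAT1. The separate rows of the table for NEAT1_1, NEAT1_2, NEAT1_3 and MIR612 stood at 0 in all 8 libraries and are not read as isoforms here, since the NEAT1 row counts the short and the long isoform together.

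Total counts ran from 25482984 to 43310401 per library. PAGE4 was counted 0 or 1 times in the 4 vector libraries and 1001 to 1489 times in the 4 PAGE4 libraries. KLK3, the gene of prostate-specific antigen, gave 142 to 1020 counts in 22RV1 and 0 to 1 in DU145. VIM, a mesenchymal filament gene, gave 267 to 1010 counts in 22RV1 and 11310 to 12516 in DU145. CD44, chosen with VIM as a marker of DU145, went the other way. It gave 4014 to 6906 counts in 22RV1 and 2245 to 4266 in DU145, so it did not set DU145 apart. Mitochondrial mRNAs made up 5.17% to 8.19% of the counts in 22RV1. In DU145 they made up 10.5% and 9.30% with PBS and 2.19% and 2.01% with H2O2. With 1 library per condition there is no replicate check on any single difference, and a difference between PAGE4 and vector cells cannot be told apart from a difference between those 2 cultures. Intervals for NEAT1 and MALAT1 are exact 95% intervals for counting error only.

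In 22RV1, NEAT1 was counted 4307 times in the vector PBS library, 9842 times with vector and H2O2, 8655 times with PAGE4 and PBS, and 17170 times with PAGE4 and H2O2. After division by size factors computed within the line, the corresponding normalized counts were 3549, 9489, 8060 and 22597. PAGE4 cells with H2O2 stood highest and vector cells with PBS lowest, and the other two conditions lay between them. In DU145, the raw counts in the same order of conditions were 14684, 6642, 12527 and 5795, and the normalized counts were 13628, 6970, 11777 and 6104. Here both PBS libraries stood above both H2O2 libraries.

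**Figure D1:**
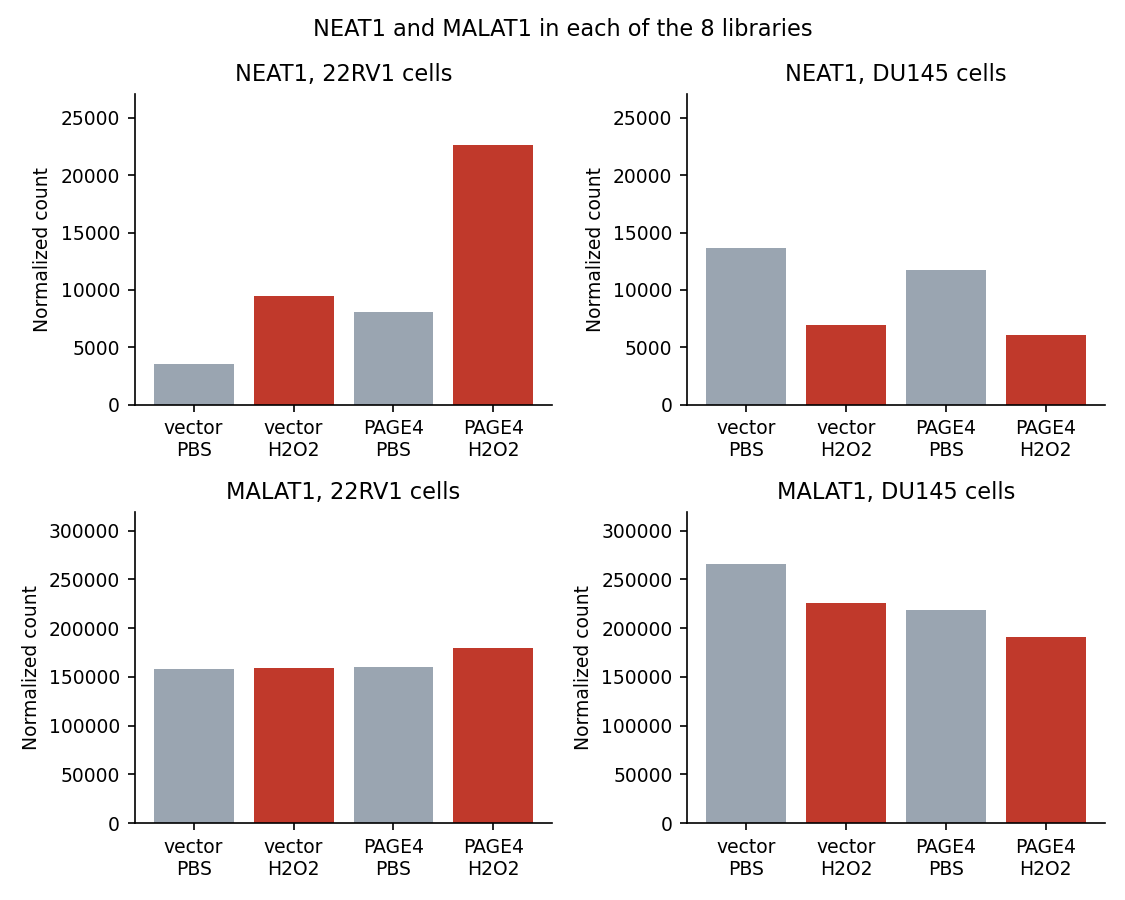
Normalized counts of NEAT1 (top) and MALAT1 (bottom) in the 4 libraries of 22RV1 (left) and of DU145 (right), 1 bar per library, grey for PBS and red for H2O2, with counts normalized within each line and therefore not compared across the panels of a row. NEAT1 reached 22597 in 22RV1 PAGE4 cells with H2O2 against 3549 in 22RV1 vector cells with PBS, whereas in DU145 it was lower in both H2O2 libraries.

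On the log2 scale, the H2O2 minus PBS difference of NEAT1 in 22RV1 was 1.42 (1.37 to 1.47) in vector cells and 1.49 (1.45 to 1.52) in PAGE4 cells, a mean of 1.45 ± 0.05 (SD, n = 2 pairs). In DU145 it was -0.97 (-1.01 to -0.93) in vector cells and -0.95 (-0.99 to -0.90) in PAGE4 cells, a mean of -0.96 ± 0.01 (SD, n = 2 pairs). The pairs of a line lay close to each other and the lines lay far apart, so that the mean over all 4 pairs, 0.25 ± 1.39 (SD), describes neither line. The DU145 difference minus the 22RV1 difference was -2.39 in vector cells and -2.44 in PAGE4 cells. The PAGE4 difference minus the vector difference was 0.07 in 22RV1 and 0.02 in DU145.

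Shares of all genes are given for scale only, because NEAT1 was chosen with these differences known. With a minimum of 10 for the mean normalized count, 8.57% (1736 of 20264) were over 1.5-fold higher with H2O2 in both 22RV1 pairs, and 14.2% (2562 of 18088) were over 1.5-fold lower in both DU145 pairs. NEAT1 met both conditions, as did 82 genes in all, or 0.494% of the 16595 genes measured in both lines. MALAT1 met neither. At a fold limit of 2, NEAT1 was no longer among them, since its DU145 differences fell just short of that limit.

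**Figure D2:**
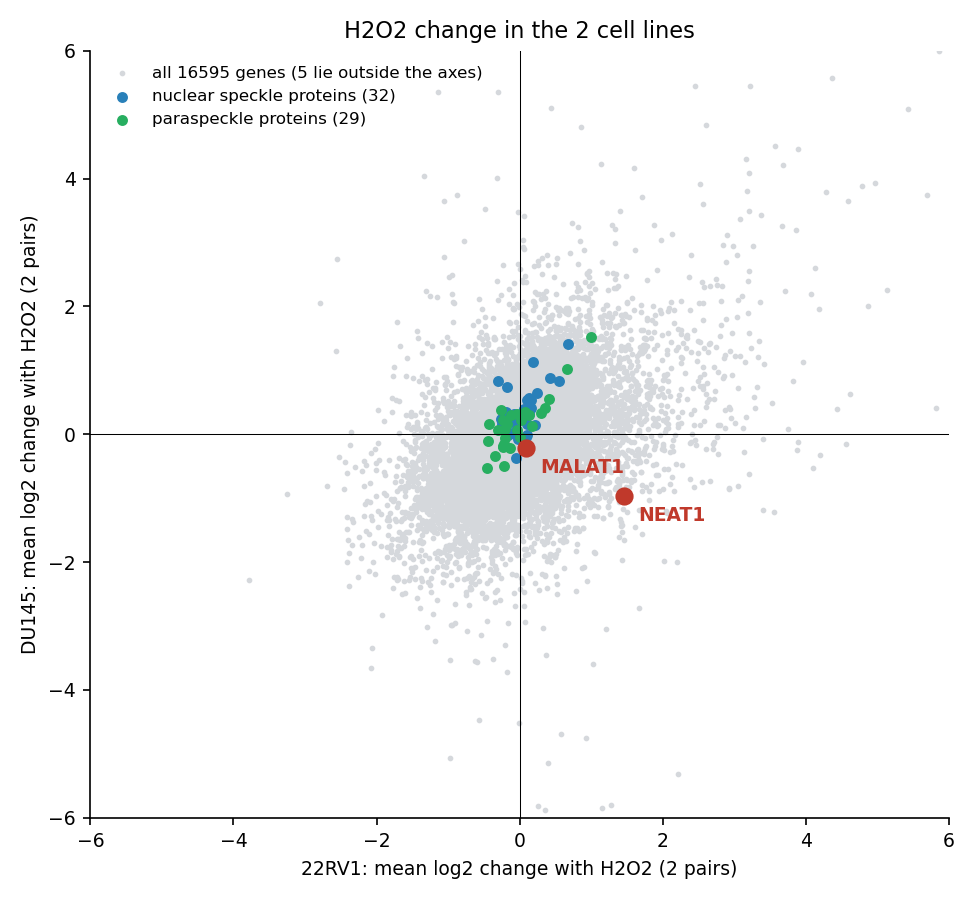
Mean log2 difference with H2O2 over the 2 pairs of 22RV1 (x axis) and of DU145 (y axis), 1 point per gene for 16595 genes, of which 5 lie outside the axes, with paraspeckle proteins in green, nuclear speckle proteins in blue, and NEAT1 and MALAT1 in red. NEAT1 lies at 1.45 and -0.96 in the lower right of the plot, and MALAT1 lies near the origin at 0.09 and -0.22.

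MALAT1 was counted 191693 times in the 22RV1 vector PBS library, 164527 times with vector and H2O2, 171663 times with PAGE4 and PBS, and 136747 times with PAGE4 and H2O2. The normalized counts were 157968, 158630, 159852 and 179969. The libraries other than the last lay close together and PAGE4 cells with H2O2 lay above them. In DU145 the raw counts were 286511, 215316, 232857 and 181300 in the same order, and the normalized counts were 265900, 225944, 218921 and 190978. Vector cells with PBS stood highest and PAGE4 cells with H2O2 lowest.

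The H2O2 minus PBS difference of MALAT1 on the log2 scale was 0.01 in 22RV1 vector cells, with an interval of -0.003 to 0.016 that includes 0, and 0.17 in 22RV1 PAGE4 cells. In DU145 it was -0.23 in vector cells and -0.20 in PAGE4 cells. The mean over 4 pairs was -0.06 ± 0.19 (SD), so the mean was smaller than the spread between pairs. In 22RV1 vector cells the value was -0.07 under TMM normalization and 0.11 under scaling by total counts, but the median of all genes stood at -0.08 and 0.11 under the same scalings. Relative to that median, the MALAT1 difference in this pair was 0.01 under each of the 5 scalings.

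MALAT1 made up from 0.438% of all counts (0.436% to 0.440%) in 22RV1 PAGE4 cells with PBS to 0.952% (0.948% to 0.955%) in DU145 vector cells with PBS. It ranked 6th to 14th by count in the 22RV1 libraries and 3rd to 9th in DU145. NEAT1 made up from 0.00994% (0.00965% to 0.0102%) in 22RV1 vector cells with PBS to 0.0674% (0.0664% to 0.0684%) in 22RV1 PAGE4 cells with H2O2. Its rank ran from 2207 in the former library to 113 in the latter, and in DU145 it stood at 207 and 256 with PBS and at 580 and 725 with H2O2.

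Per exon length, MALAT1 was at 419 to 514 RPKM (counts scaled to exon length and to the library total) in 22RV1 and at 658 to 912 RPKM in DU145. NEAT1 was at 4.37, 12.6, 9.69 and 29.6 RPKM in the 22RV1 libraries and at 21.4, 11.2, 18.6 and 9.65 RPKM in the DU145 libraries, in the order vector PBS, vector H2O2, PAGE4 PBS and PAGE4 H2O2. The ratio of MALAT1 to NEAT1 needs no scaling between libraries. Per exon length it was 97.1, 36.5, 43.3 and 17.4 in 22RV1 and 42.6, 70.7, 40.6 and 68.3 in DU145, in the same order. MALAT1 was thus the more abundant RNA in every library, and with H2O2 the ratio was lower in both 22RV1 pairs and higher in both DU145 pairs. With the RefSeq lengths, the ratio ran from 20.6 to 115. The NEAT1 value averages over an exon length that the short isoform does not fill, and reads of the isoforms cannot be told apart here.

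The comparison of PAGE4 with vector cells uses the same 8 libraries as the H2O2 comparison, so the results are not independent. On the log2 scale NEAT1 was 1.18 (1.13 to 1.24) higher in 22RV1 PAGE4 cells with PBS and 1.25 (1.22 to 1.29) higher with H2O2. In DU145 the difference was -0.21 (-0.25 to -0.18) with PBS and -0.19 (-0.24 to -0.14) with H2O2. The mean over the 4 pairs was 0.51 ± 0.82 (SD), smaller than the spread between them. Over 1.5-fold higher in both 22RV1 pairs were 2.88% of 20264 genes, NEAT1 included. PAGE4 cells with H2O2 had 6.37-fold the NEAT1 of vector cells with PBS in 22RV1 and 0.448-fold in DU145.

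For MALAT1 the PAGE4 minus vector difference on the log2 scale was 0.02 with PBS and 0.18 with H2O2 in 22RV1, and -0.28 and -0.24 in DU145. The difference of 0.02 was -0.02 under TMM and also negative under 3 other scalings, but relative to the median of all genes it was -0.01 under each of the 5 scalings. The mean was -0.08 ± 0.22 (SD, n = 4 pairs). Across the 4 pairs, 0.136% of 19784 genes (27, of which 17 were higher) were called for PAGE4 by the quasi-likelihood test of edgeR with Benjamini-Hochberg adjustment, and 1587 had an unadjusted p under 0.05. The number called was 483 when low counts were kept, 79 in the Wald test of DESeq2, 1 with the cell line as block and 1 to 44 with a pair left out, so 27 is not a stable count. No gene of the paraspeckle, speckle, processing, regulator or long noncoding RNA lists described below was among the 27. The DESeq2 Wald test called 0 genes of these lists, and at an unadjusted p under 0.05 in edgeR the lists held 3, 0, 1, 1 and 4 genes in that order.

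To compare lines, counts were normalized over all 8 libraries. NEAT1 ran from 2960 in 22RV1 vector cells with PBS to 18704 in 22RV1 PAGE4 cells with H2O2, a 6.32-fold range. DU145 vector and PAGE4 cells with PBS followed the top at 16459 and 14188. The next 4 conditions lay close together, at 8300 in DU145 vector cells with H2O2, 7692 in 22RV1 vector cells with H2O2, 7212 in DU145 PAGE4 cells with H2O2 and 6721 in 22RV1 PAGE4 cells with PBS. Neighbours among these 4 were 0.09 to 0.11 apart on the log2 scale, and no replicate spread exists to set such steps against. A larger step of 0.77 separated them from the DU145 PBS libraries, and one of 1.18 from 22RV1 vector cells with PBS.

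**Figure D3:**
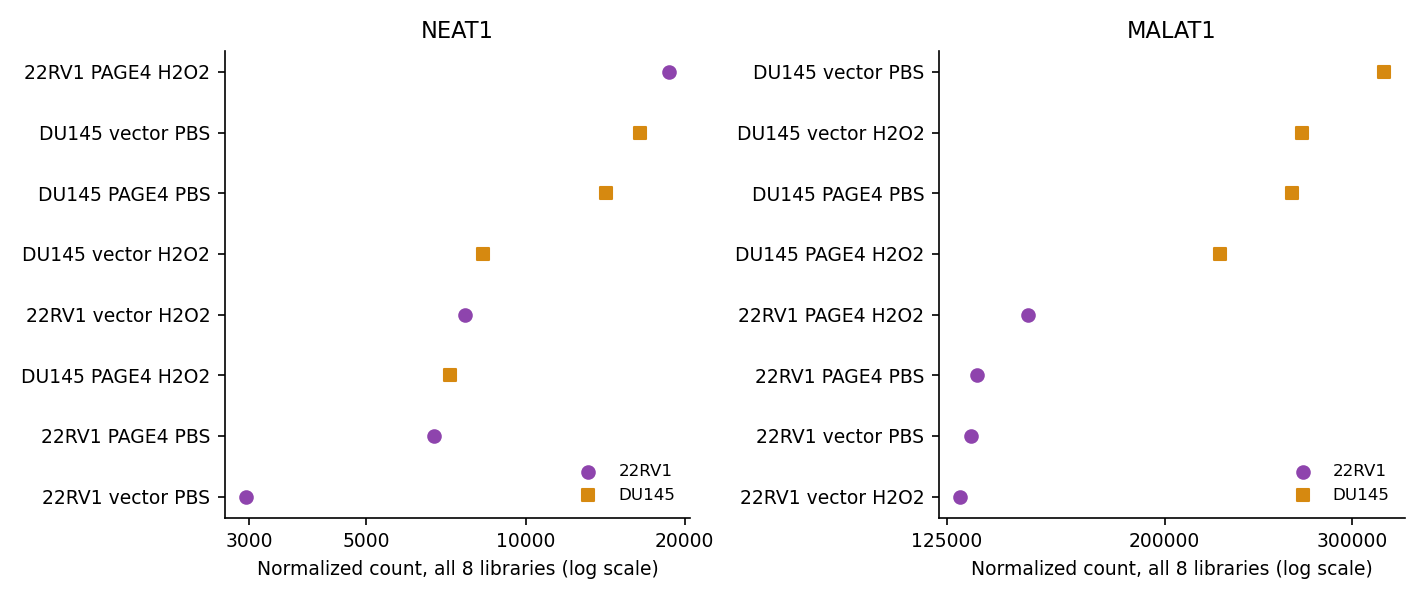
NEAT1 (left) and MALAT1 (right) in the 8 libraries, ordered from the highest to the lowest count normalized over all 8 libraries (log axis), with circles for 22RV1 and squares for DU145. The lines interleave for NEAT1, between 2960 and 18704, and separate for MALAT1, where the lowest DU145 library (225623) lies above the highest 22RV1 library (148965).

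The DU145 minus 22RV1 difference of NEAT1 was 2.47 on the log2 scale for vector cells with PBS, 0.11 for vector cells with H2O2, 1.08 for PAGE4 cells with PBS and -1.37 for PAGE4 cells with H2O2. DU145 thus held more NEAT1 in both PBS pairs and less in PAGE4 cells with H2O2. The value of 0.11 was -0.17 with scaling by total counts and -0.13 with mitochondrial genes, NEAT1 and MALAT1 left out of the totals, where the median of all genes stood at -0.31 and -0.27. Relative to that median it was 0.14 under each of the 5 scalings. NEAT1 was among the 25.2% of 19935 genes over 1.5-fold higher in DU145 in both PBS pairs.

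For MALAT1 the DU145 minus 22RV1 difference was 1.29, 1.07, 0.98 and 0.60 in the same order of conditions, a mean of 0.98 ± 0.29 (SD, n = 4 pairs). The 4 DU145 libraries ran from 225623 to 321147 and the 4 22RV1 libraries from 128589 to 148965, without overlap. The share of all genes without such overlap is not given here, so this is not read as particular to MALAT1. MALAT1 was among the 19.2% of genes over 1.5-fold higher in DU145 in all 4 pairs. The pair of PAGE4 cells with H2O2 passed narrowly, at 1.51-fold. With size factors from the 2 compared libraries this pair was at 0.57 on the log2 scale, below 1.5-fold. Scaling by total counts gave 0.36, and leaving mitochondrial genes, NEAT1 and MALAT1 out of the totals gave 0.39, both below it too. Relative to the median of all genes the pair was at 0.64 under each of the 5 scalings. In the order of MALAT1 levels, the 3 lowest 22RV1 libraries were 0.02 and 0.04 apart on the log2 scale. DU145 vector cells with H2O2 and PAGE4 cells with PBS were 0.03 apart.

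The genes of paraspeckles, speckles and RNA processing, known regulators and other long noncoding RNAs were set beside the pair. They were tested across the 4 H2O2 pairs with the edgeR quasi-likelihood test and Benjamini-Hochberg adjustment over 19784 genes, of which 10.2% were called higher and 12.7% lower, with a median log2 difference of -0.04. Differences of their H2O2 response between lines were tested as an interaction in the same way, and 19.5% of genes were called. Each line is represented by 1 vector and 1 PAGE4 culture, so these p-values measure only the spread between these pairs.

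Of 29 paraspeckle proteins, 5 rose, 3 fell and 21 did not pass the test, with a median of -0.03. RBM14, which is needed to assemble paraspeckles, rose by 1.24 on the log2 scale (SE 0.12, adjusted p = 0.00144, edgeR) and was higher with H2O2 in 4 of 4 pairs, at 7886 against 3548 and 6266 against 3503 normalized counts in 22RV1 and at 7051 against 2433 and 7719 against 2692 in DU145. Unlike NEAT1, it was higher with H2O2 in both lines. AKAP8L rose by 0.82 (adjusted p = 0.00617, edgeR), RBM12 by 0.45 and PSPC1, a partner of NONO, by 0.29 (adjusted p = 0.0492, edgeR). HNRNPA1, a splicing regulator, fell by 0.51 (adjusted p = 0.0071, edgeR), and TAF15, an RNA-binding protein, fell by 0.38.

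NONO and SFPQ, which bind NEAT1 and hold the body together, did not pass this test, with log2 differences of -0.14 and 0.19 (adjusted p = 0.340 and 0.174, edgeR). The NONO response nevertheless differed between lines by 0.33 (adjusted p = 0.0269, edgeR interaction), with -0.24 and -0.36 in the 22RV1 pairs and 0.04 and 0.11 in the DU145 pairs. The response differed between lines for 6 of the 29 paraspeckle proteins, near the share of 19.5% over all genes. Each of the 6 was more positive in DU145, and the NEAT1 difference, which was not tested, was more positive in 22RV1. Of the 29, 0 were over 1.5-fold higher in both 22RV1 pairs and lower in both DU145 pairs, which at the share of 0.494% over all genes says little about a list of this size. Leaving out the 22RV1 vector, DU145 vector or DU145 PAGE4 pair left 3 of these proteins higher and 1 lower.

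Of 32 nuclear speckle proteins, 4 rose and 0 fell in the edgeR test, with a median of 0.20. At an unadjusted p under 0.05 in edgeR, 11 were higher and 0 lower. Of all 19784 genes, 7415 passed this limit in the 2 directions together, so passing it is common. The 4 were CLK1 (1.02, adjusted p = 0.00865, edgeR), CLK3 (0.66), BCLAF1 (0.63) and DYRK1A (0.41). CLK1, CLK3 and DYRK1A are kinases that phosphorylate splicing factors. MALAT1 differed by less than 0.25 in each direction in the same pairs. The speckle response differed between lines for 11 of the 32 proteins, 10 of them more positive in DU145, against 19.5% called over all genes. The DESeq2 Wald test called 6 higher and 0 lower, and 2 were higher without the 22RV1 vector, DU145 vector or DU145 PAGE4 pair.

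Of 28 genes for processing and stability of the pair, 7 rose and 2 fell, with a median of 0.24. METTL16, which binds the MALAT1 triple helix, rose by 0.59 (adjusted p = 0.00633, edgeR) and was higher in 4 of 4 pairs. METTL3, the catalytic subunit of the m6A methyltransferase, fell by 0.71 (adjusted p = 0.00413, edgeR), from 2017 to 1371 and from 2426 to 1645 normalized counts in 22RV1 and from 3064 to 1737 and from 3047 to 1740 in DU145. ELAC2, the enzyme that trims the other end of the tRNA-like RNA, was at 0.05 (adjusted p = 0.706, edgeR). The RNase P subunit RPP38 rose by 0.52, AGO2 by 0.72 and the mRNA export factor NXF1 by 0.68. Without the DU145 vector pair or without the DU145 PAGE4 pair, 2 rose and 1 fell.

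Of 25 regulators known to act on transcription of the pair, 6 rose and 2 fell, with a median of 0.13. ATF4, a stress-response factor, rose by 0.63 (adjusted p = 0.0242, edgeR), NR1D1 by 0.65 and RUNX1 by 0.92, although RUNX1 had only 2 to 18 counts in 22RV1. HSF1, the heat shock factor, KDM4A and RELA, a subunit of NF-kB, made up the rest that rose. BRCA1, a DNA repair gene, fell by 0.86 (adjusted p = 0.00124, edgeR). Without the 22RV1 vector pair or the DU145 vector pair 1 regulator rose, and without the DU145 PAGE4 pair 2 did.

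For 10 of the 25 regulators the response differed between lines, against 19.5% called over all genes. For 5 of the 10, EPAS1, ARNT, ATF4 and STAT3 included, it was more positive in 22RV1, as for NEAT1. It was more positive in DU145 for the other 5, HIF1A, EZH2, MYC, SETD2 and WDR5. EPAS1, which encodes HIF-2alpha, HIF1A, which encodes HIF-1alpha, and STAT3 are singled out here after their values were seen. EPAS1 normalized counts in 22RV1 were 182 and 176 with PBS and 489 and 422 with H2O2, and in DU145 they were 2316 and 2575 with PBS and 1663 and 1735 with H2O2. EPAS1 was thus higher with H2O2 in both 22RV1 pairs (1.42 and 1.26 on the log2 scale) and lower in both DU145 pairs (-0.48 and -0.57), with a difference between lines of -1.91 (adjusted p = 5.41e-08, edgeR interaction). HIF1A ran the other way, at -0.94 and -0.65 in 22RV1 and at 0.09 and 0.05 in DU145 (difference 0.82, adjusted p = 5.06e-05, edgeR interaction). STAT3 was at 0.52 and 0.63 in 22RV1 and at -0.38 and -0.40 in DU145 (difference -1.01, adjusted p = 4e-06, edgeR interaction). NFE2L2, the master regulator of antioxidant genes, was at 0.20 (adjusted p = 0.122, edgeR). Whether any of these changes acts on NEAT1 was not tested.

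Of 39 other long noncoding RNAs, 34 were measured well enough to test, and 14 rose and 3 fell, with a median of 0.45. MIR22HG, the host transcript of a microRNA, rose by 1.59 (adjusted p = 0.000957, edgeR). EPB41L4A-AS1 rose by 1.18, SNHG15 by 1.14, ZFAS1 by 1.10 and SNHG1 by 1.09, the SNHG RNAs and ZFAS1 being host transcripts of small nucleolar RNAs. The response differed between lines for 16 of the 34, against 19.5% called over all genes, and it was more positive in DU145 for 12 of these. The opposite directions of NEAT1 beyond 1.5-fold were seen in 0 of the 34, which at the share of 0.494% over all genes says little about a list of this size. Outside the list, long noncoding RNAs such as MIR34AHG and LINC00304 did show them. Without the DU145 vector pair or the DU145 PAGE4 pair, 6 rose.

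Both genes sit in a gene-rich stretch, and 56 genes are annotated within 250 kb of either, of which 29 had a row in the table and 22 were tested. With H2O2, 4 of these rose and 3 fell, with a median of 0.09. FRMD8, the nearest tested gene before NEAT1, rose by 0.85 (adjusted p = 0.00153, edgeR) and was higher in all 4 pairs, by 0.97 and 0.89 in 22RV1 and by 0.84 and 0.79 in DU145. It thus moved in the same direction in both lines where NEAT1 did not. DPF2, a chromatin remodelling subunit, rose by 0.56, whereas POLA2, a DNA polymerase subunit, fell by 0.79, EHBP1L1 by 0.66 and CAPN1, a protease, by 0.65. Without the 22RV1 vector pair or the DU145 vector pair, 2 of the neighbours rose. The opposite directions of NEAT1 beyond 1.5-fold were seen in 0 of the 22, which at the share of 0.494% over all genes again says little.

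**Figure D4:**
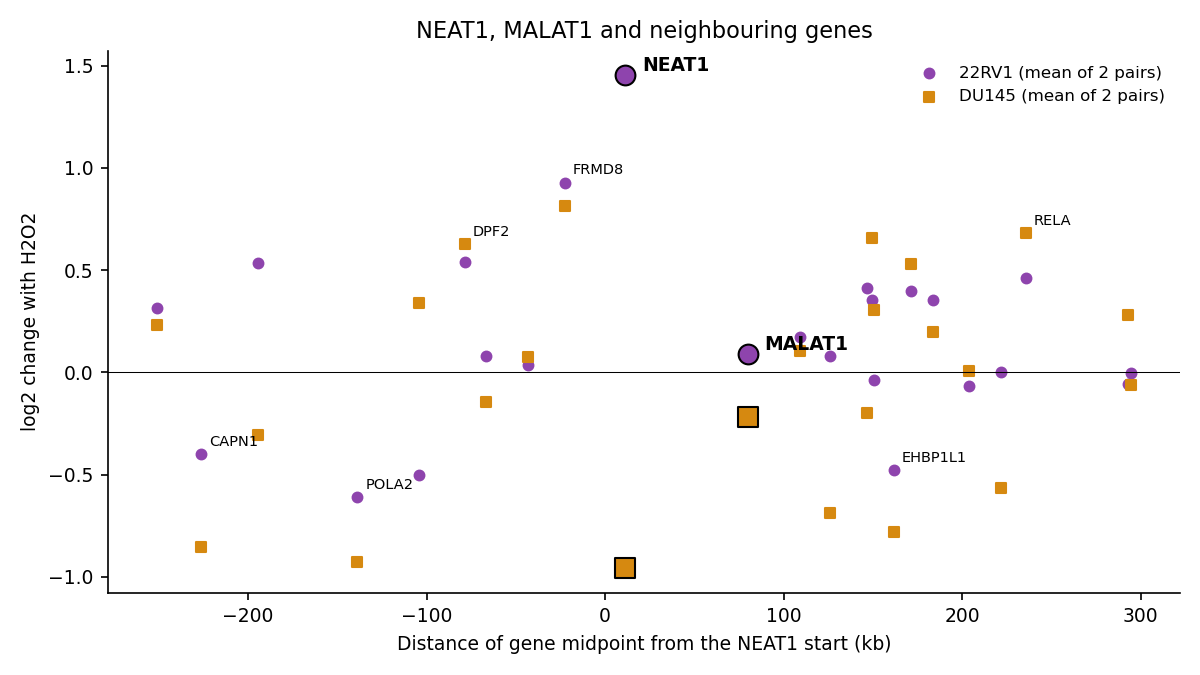
Mean log2 difference with H2O2 over the 2 pairs of each line (circles for 22RV1, squares for DU145) against the distance of the gene midpoint from the NEAT1 start in kb, with large outlined symbols for NEAT1 and MALAT1 and small ones for the 22 tested neighbours. The NEAT1 symbols stand at 1.45 and -0.96, further apart than those of any neighbour, while those of FRMD8 lie together.

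Promoter windows of RefSeq (GRCh38.p14), from 250 bases before a start to 50 after it, were listed for MALAT1 at chr11:65497488-65497787 and chr11:65498795-65499094, with a GC content of 73.7% and 46.0%. NEAT1 had no entry. For the antioxidant response element a loose string, TGANNNNGC, was searched on both strands, with any base allowed after TGA. It was found at 2 places in each MALAT1 window, and 41.8% of 35116 promoter windows hold it. The base after TGA was C at both places of the first window and G at both places of the second. Matches to this string are thus not read as the element itself, and a stricter form was not searched. TATAAA was found once in the second window (11.5% of windows hold it). The heat shock letters GAANNTTC (6.77%), the hypoxia letters ACGTG (21.4%), the AP-1 letters TGANTCA (7.71%) and the cyclic AMP letters TGACGTCA (1.85%) were in neither window. A match is a description of letters and no evidence that a factor binds.

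To find the genes whose pattern was most like that of NEAT1, log2 normalized counts were centred within each line, and genes were ordered by their root mean square (RMS) difference from NEAT1 over the 8 libraries among 12321 other genes with a mean of at least 50. The nearest was KANK3 (RMS 0.19, r = 0.98 over 8 libraries), followed by NPR2 (0.30), a receptor for natriuretic peptide, DNAJC12 (0.31), a co-chaperone, COL1A1 (0.31), the collagen chain, and MIR34AHG (0.32), the host transcript of miR-34a. The median over all genes was 0.80, and MALAT1 stood at rank 1144 with 0.68 (r = 0.64). KANK3 normalized counts were 147, 363, 268 and 607 in 22RV1 and 116, 60.9, 83.7 and 55.8 in DU145, in the order vector PBS, vector H2O2, PAGE4 PBS and PAGE4 H2O2. MIR34AHG was at 76.6, 294, 104 and 411 in 22RV1 and at 138, 77.7, 133 and 68.5 in DU145. All 8 points share libraries with NEAT1, and these correlations are descriptions.

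COL1A1 is also in a list of 14 markers of other cell types, of which 4 to 10 had no more than 3 counts in a library. The summed level of the list was 23.0, 32.8, 53.4 and 55.7 CPM (counts scaled to the library total) in the 22RV1 libraries, in the same order of conditions, and 7.62 to 11.2 in DU145, most of it from COL1A1 and ALB. CD3E, HBB, DCN and COL1A2, singled out from the 14 after their values were seen, were counted at most 17 times in a library. They do not stand for the other markers of the list. ACTA2, another marker on this list, was over 1.5-fold higher with H2O2 in both 22RV1 pairs and lower in both DU145 pairs. The part of other cells in the NEAT1 values was not tested.

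For MALAT1 the nearest genes were DEPDC5 (RMS 0.03, r = 0.98), AK3, BSN, PMS2 and EPB41 (RMS 0.05), against a median of 0.27 over all genes. Their differences with H2O2 were small, from -0.06 to 0.22 on the log2 scale in 22RV1 and from -0.31 to -0.10 in DU145. NEAT1 stood at rank 11864 of 12321 by this measure.

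**Figure D5:**
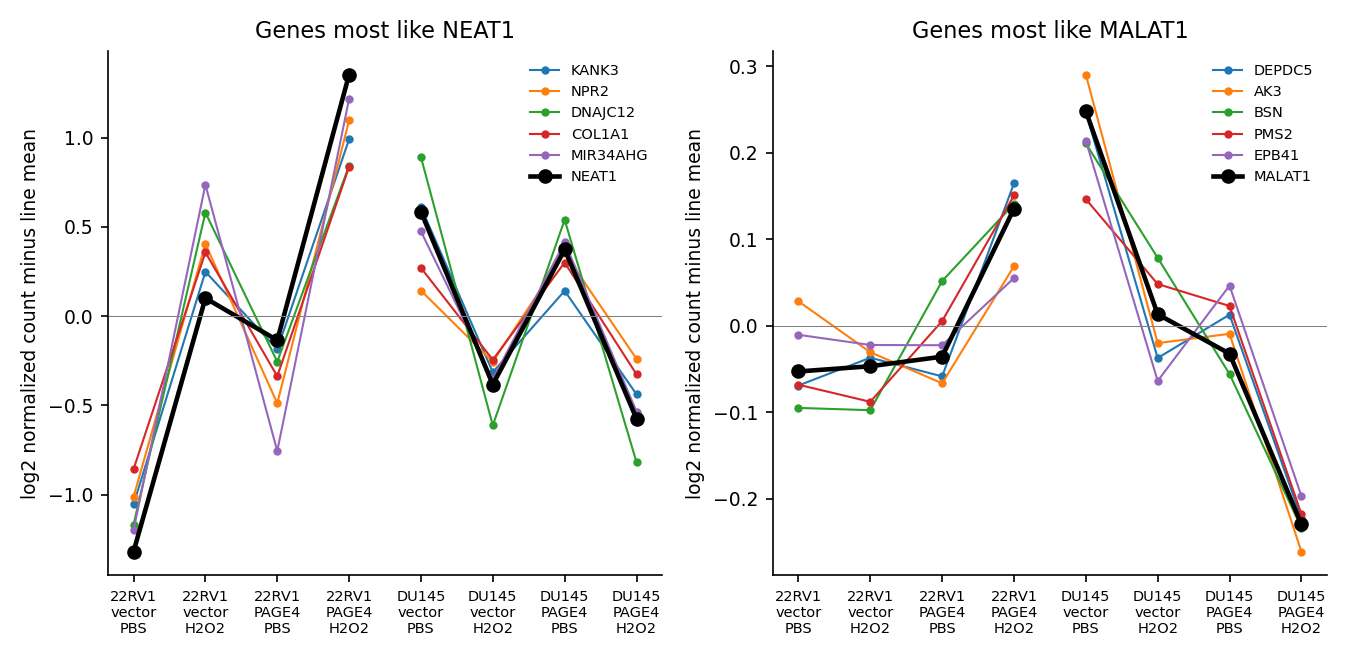
Log2 normalized counts minus the mean of the line in the 8 libraries for NEAT1 and the 5 genes most like it (left) and for MALAT1 and the 5 genes most like it (right), with the member in black and 1 coloured line per other gene. The NEAT1 panel spans more than 2 log2 units with opposite directions in the lines, and the MALAT1 panel spans about 0.5 with a downward course in DU145.

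RNAs without a poly(A) tail (small nuclear, small nucleolar, signal recognition particle, RNase P and MRP, vault, telomerase and histone RNAs) summed to 66.2, 81.0, 69.7 and 73.4 CPM in 22RV1 and to 116, 146, 105 and 166 in DU145. In CPM the sum was higher with H2O2 in all 4 pairs, without correction for the median of all genes. Under scaling by total counts that median stood at 0.11 and 0.12 on the log2 scale in the 22RV1 vector and PAGE4 pairs. The rise from 69.7 to 73.4 in 22RV1 PAGE4 cells is thus not read as particular to these RNAs. Of 24 listed, 14 were tested, and 3 rose and 1 fell, but 1 rose when the 22RV1 vector, DU145 vector or DU145 PAGE4 pair was left out. In DU145, MALAT1 and NEAT1 were lower with H2O2 in both pairs. The 13 mitochondrial mRNAs include 8 that fell (2 when the DU145 vector pair or the DU145 PAGE4 pair was left out) and 0 that rose in the edgeR test (0 also by the DESeq2 Wald test and at an unadjusted p under 0.05), and their response was more negative in DU145 for all 13. With mitochondrial genes, NEAT1 and MALAT1 left out of the totals, the NEAT1 difference was 1.48 and 1.59 in 22RV1 and -1.03 and -1.01 in DU145. Such rescaling shifts all genes of a pair alike, so it cannot decide what part mitochondrial mRNAs have in the NEAT1 and MALAT1 values. Their part, and that of tail content, was not tested.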

How the data were processed

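RNA-seq of 8 libraries was analysed, 1 for each combination of cell line, construct and treatment, grouped by their labels. Per the labels, the authors aligned the reads with HISAT2 2.1.0 (GRCh38) and used featureCounts 1.6.0 to deposit raw counts for each gene. RNA selection, strand setting and annotation release are not given in the sources used here. The labels name Trizol and the methods a column kit.

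NEAT1, MALAT1 and all gene lists were chosen with earlier results of these data known. Counts were divided by DESeq2 1.42.0 size factors within a line, or over all 8 libraries between lines, and 0.5 was added before log2. Shares used a fold over 1.5 and genes whose normalized counts averaged at least 10. Listed genes were tested with edgeR 4.0.16 in R 4.3.3 (quasi-likelihood test, TMM, filterByExpr, pairs as blocks, adjusted p under 0.05). The edgeR fit across the 4 H2O2 pairs was checked on simulated counts with 200 genes changed 4-fold, of which 200 were recovered, with 10 false calls. The simulation used the same dispersion for every gene and the same change in every pair. It therefore says little about smaller changes or changes that differ between lines. From each list, up to 5 called genes with the largest H2O2 change were named, plus NONO, SFPQ, PSPC1, RBM14, METTL16 and ELAC2; others named (HSF1, KDM4A, RELA, NFE2L2, EPAS1, HIF1A, MYC, EZH2, SETD2, WDR5, ARNT, STAT3, ACTA2 and other markers) were added after their values were seen. Some genes the rule names are not reported here. Older symbols were matched through RefSeq synonyms, and coordinates are those of GENCODE release 44. Alternatives were TMM, total counts with or without mitochondrial genes, size factors from the 2 compared libraries, a pseudocount of 1, a mean of at least 50, a fold over 2, the DESeq2 Wald test, all genes without a filter, blocks by cell line, and each pair left out. Total counts ran from 25482984 to 43310401, and counts of 3 or fewer were taken as not detectable.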

Additional observations from a re-analysis of the deposited data

Results flagged for a closer look

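The H2O2 difference of NEAT1 in DU145 minus that in 22RV1 was -2.41 on the log2 scale, and every pair of 22RV1 moved one way and every pair of DU145 the other. The MALAT1 value was -0.30, again with opposite directions in the lines, although in 22RV1 vector cells it lay within 0.01 of the median of all genes. Neither difference was tested.

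For listed genes the H2O2 response differed between lines in the edgeR interaction test. As DU145 minus 22RV1 on the log2 scale, it was more positive in DU145 for SNORD3A (2.87, at 3 to 122 counts per library), SNHG1 (1.38), SNHG15 (1.37), BCLAF1 (0.89), AGO2 (0.80), EPB41L4A-AS1 (0.77), CLK1 (0.69), ZFAS1 (0.51), RBM14 (0.49) and NONO (0.33). It was more negative in DU145 for MT-ND6 (-2.01), MT-CO3 (-1.82), MT-CYB (-1.68), MT-CO2 (-1.65), MT-CO1 (-1.03), ATF4 (-0.59) and CAPN1 (-0.50).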

How the results depend on the processing

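The means over 4 pairs of NEAT1 and MALAT1 moved by less than 1 SD over the pairs under every alternative run for them. For pairs left out this was fixed in advance, since leaving out 1 of 4 pairs cannot move a mean by 1 SD. The NEAT1 SD with H2O2 is also wide because the lines moved in opposite directions. The NEAT1 mean with H2O2 ranged from -0.17 to 0.65 as pairs were left out, and its DU145 minus 22RV1 mean from -0.06 to 1.22. The number of genes called for H2O2 was 4545, and leaving out a pair gave 1982 to 3985. The number called for PAGE4 was 27, against 79 with the DESeq2 Wald test, 483 without a filter, 1 with the cell line as block, and 1 to 44 with a pair left out. The cause was not tested. The 0.494% of genes with the opposite directions of NEAT1 became 0.325% at a mean of at least 50 and 0.0603% at a fold over 2. Of the genes most like NEAT1, 3 of 5 were shared at a mean of at least 10 and 4 of 5 under TMM, and for MALAT1 all 5 were shared under both. Over the alternatives for the single genes chosen by rule, 457 values kept their call, 49 lost it and 2 gained it. The labels give no replicate numbers, and the pairs of libraries were already blocks in the tests.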
